A study of Mus musculus with 16 samples.

Results

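Itga1-positive natural killer (NK) and type 1 innate lymphoid cell (ILC1)-like cells were followed here in single-cell RNA sequencing of CD45+ cells from mouse tumors. Itga1 encodes CD49a, the alpha chain of a collagen-binding integrin. Members were selected on counts of unique molecular identifiers (UMIs), each standing for 1 captured transcript. A cell barcode was kept when it had at least 500 detected genes and at most 10% mitochondrial UMIs, and a barcode found in several libraries of a tumor line was kept only where its UMIs were highest. A kept barcode was a member when it held at least 2 UMIs of Ncr1 (NKp46) plus Klrb1c (NK1.1), 0 UMIs of Cd3d and Cd3e, and at least 1 UMI of Itga1. This gave 396 members among 16350 kept barcodes, out of 28678 called in the series. Together with 1319 barcodes that passed the Ncr1, Klrb1c and Cd3 limits without an Itga1 UMI, they formed an NK gate of 1715 barcodes. The 1319 are called Itga1-negative NK cells, although a cell with no UMI may still transcribe the gene.

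ILC1 and conventional NK cells are both cytotoxic innate lymphocytes that express T-bet and make interferon-gamma. In mice, conventional NK cells need Eomes, carry the integrin CD49b (Itga2) and circulate, whereas ILC1 reside in tissue, carry CD49a and often TRAIL (Tnfsf10), and keep the interleukin-7 receptor. CD49a can also be acquired by NK cells in tumors, where TGF-beta can drive such a change, and by resident memory T cells.

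Tumors were grown under the skin of C57BL/6J mice aged 6 to 8 weeks from MC38, a mouse colorectal carcinoma line, or from Panc02-SIY, a mouse line of pancreatic adenocarcinoma that carries SIY as a model antigen. They were left untreated or received a single image-guided dose of 12 Gy, and were harvested after 24 h. Live CD45+ cells of each tumor were sorted and made into 10x libraries, with 4 libraries for each of the groups untreated MC38, irradiated MC38, untreated Panc02-SIY and irradiated Panc02-SIY. The sources differ on whether 4 or 3 animals were used per group, and nothing in the labels ties a library to an animal. The p-values therefore measure only the spread between libraries, which may be technical.

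The libraries held between 3240877 and 43776342 UMIs and between 1008 and 4538 called barcodes. After the barcode filter, MC38 libraries kept between 75 and 365 barcodes and Panc02-SIY libraries between 806 and 3497. In Panc02-SIY libraries, members had a median of between 5124.5 and 7785 UMIs per cell, and Itga1-negative NK cells a median of between 3743 and 5378. Members were the deeper population in these libraries, and shares of cells with a UMI are given below at equal depth.

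Nearly all members came from Panc02-SIY tumors, 380 of the 396. Untreated Panc02-SIY libraries held 34, 39, 45 and 63 members and irradiated ones 30, 40, 50 and 79. The untreated MC38 libraries held 3, 1, 1 and 6 members, and the irradiated ones 0, 0, 0 and 5. Of the 16 MC38 members, 8 had a barcode that was also called in another MC38 library, against 0 of 380 in Panc02-SIY, so MC38 counts are neither numerous nor fully independent. Only libraries with at least 5 cells of a population entered a gene test, which left MC38 with 1 untreated and 1 irradiated library. The radiation and tumor comparisons of MC38 members, and the interaction of tumor and radiation, were therefore not fitted, and the radiation results below are those of Panc02-SIY tumors.

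Members made up similar shares of kept barcodes in untreated and irradiated Panc02-SIY tumors, while Itga1-negative NK cells had a larger mean share after irradiation. In the untreated libraries, members were 3.97%, 2.34%, 3.31% and 1.80% of kept barcodes. In the irradiated ones they were 3.72%, 2.21%, 2.44% and 2.92%. The ranges overlapped, and the means of 2.85% ± 0.971 and 2.82% ± 0.669 (SD, n = 4 each) gave no difference by an exact two-sided permutation test (p = 1, adjusted p = 1 over 12 share comparisons). Itga1-negative NK cells averaged 6.44% ± 3.01 untreated and 13.2% ± 4.34 irradiated, with no test of its own, and the whole NK gate measured 9.30% ± 3.95 and 16.03% ± 4.76 (exact permutation p = 0.0857, adjusted p = 0.147).

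Within the NK gate, members formed a smaller fraction of irradiated Panc02-SIY tumors. They were 29.1%, 37.9%, 28.5% and 31.3% of the gate in the untreated libraries and 16.6%, 15.7%, 14.9% and 25.9% in the irradiated ones. Every untreated library lay above every irradiated one. The means were 31.7% ± 4.30 and 18.3% ± 5.12, a difference of -13.4 percentage points (exact two-sided permutation p = 0.0286, the smallest that 4 against 4 can give; adjusted p = 0.0857). Leaving out any 1 of the 8 libraries gave -15.9 to -11.3 points (adjusted p = 0.137 or 0.171), each at an exact permutation p of 0.0571, the smallest that 3 against 4 can give. The call depended on Itga1 depth and on the gate. Thinning each cell to 1000 UMIs before counting Itga1 left -4.39 points (exact permutation, adjusted p = 0.114). Shares then fell in both groups, to between 7.59% and 15.5% untreated and between 5.51% and 8.85% irradiated. Point differences are therefore not comparable across depths. Requiring 0 UMIs of further T cell genes left 2 untreated and 10 irradiated members and turned the sign to 5.54 points (exact permutation, adjusted p = 0.471).

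In MC38 tumors, members were 33.3%, 25.0%, 50% and 54.5% of the NK gate in the untreated libraries. They were 0 of 3, 0 of 8, 0 of 10 and 5 of 14 NK gate cells in the irradiated ones, and the exact 95% binomial intervals of the 3 libraries at 0 reach up to 70.8%, 36.9% and 30.8%. The difference was not detectable with 2 to 14 NK gate cells per library (exact two-sided permutation p = 0.0857, adjusted p = 0.147). Members of irradiated MC38 tumors averaged 0.342% ± 0.685 of kept barcodes, against 2.82% ± 0.669 in irradiated Panc02-SIY tumors (adjusted p = 0.0857 in the exact permutation test). This call was lost when every barcode was thinned before the gate (-0.308 points, exact permutation, adjusted p = 0.114) and under several other gates. With that thinning, members were 0% to 0.284% of kept barcodes in irradiated MC38 libraries and 0.279% to 0.503% in irradiated Panc02-SIY ones. The point difference at that depth is not comparable with the one without thinning.

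**Figure D1:**
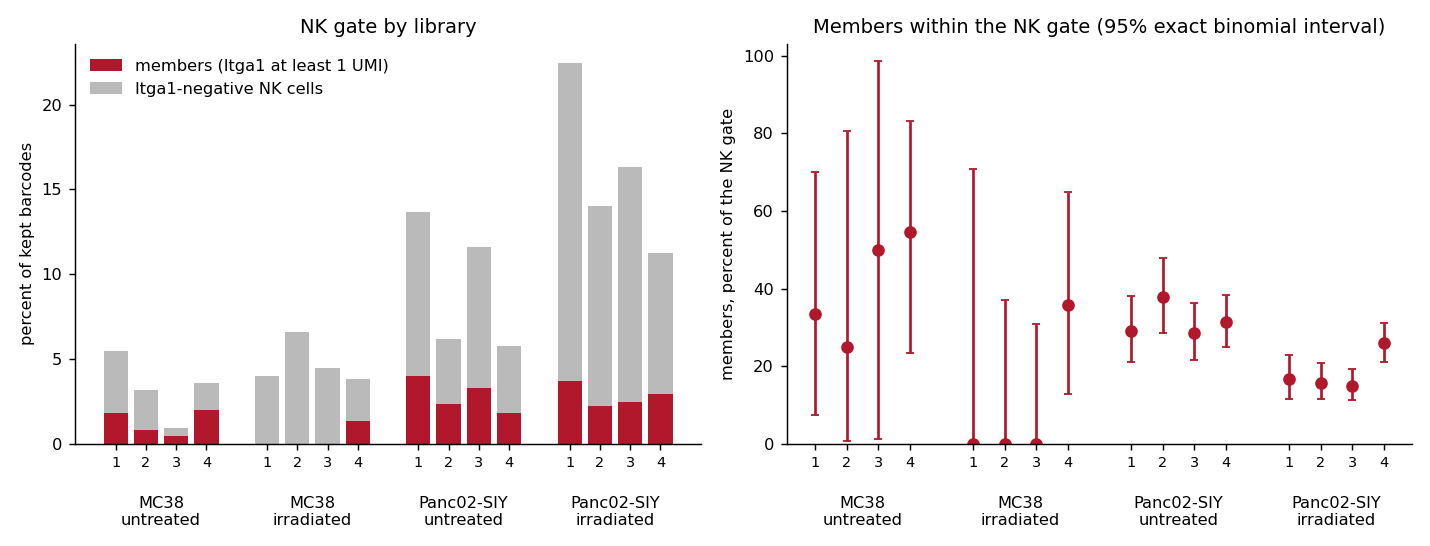
NK gate by library. Left, stacked bars give members (red) and Itga1-negative NK cells (gray) as percent of kept barcodes, so the bar height is the NK gate. Right, members as percent of the NK gate with 95% exact binomial intervals, which cover counting error only. The 4 untreated Panc02-SIY points, 28.5% to 37.9%, all lie above the 4 irradiated ones, 14.9% to 25.9%, and the MC38 intervals are wide.

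The gate genes are described without a test, since they chose the members. Itga1 (chr13:114953096-115101964, minus strand of GRCm38) measured a mean of 360 ± 76.9 CPM (UMI counts summed over the members of a library and scaled to a common library size by edgeR's TMM method; SD, n = 10 libraries). Of the members, 141 held exactly 1 Itga1 UMI, 79 held 2, 79 held 3 and 97 held at least 4, up to 15. Ncr1 (chr7:4337724-4345164, plus strand) was seen in 346 members and Klrb1c (chr6:128778485-128789215, minus strand) in 383. The sum of both had a median of 8 UMIs in members and 6 in Itga1-negative NK cells, and 22 members stood at the limit of exactly 2. Just outside the gate were 23 barcodes with 1 UMI of Ncr1 or Klrb1c, and 288 that met every other limit but held a Cd3d or Cd3e UMI, 61 of them exactly 1. Itga1 overlaps the gene model of Pelo on the same strand, and reads of the 2 cannot always be told apart.

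Itga1 UMIs were more frequent in the NK gate than in cell types that should lack the gene. In Panc02-SIY tumors, 23.0% of NK gate cells had an Itga1 UMI, against 0.649% of 154 B cells and 3.11% of 2024 neutrophils. Median depths were 4809, 3438.5 and 2846 UMIs. At 1000 UMIs per cell the shares were 8.46%, 0% and 0.793%. CD8 T cells, many of which carry CD49a as resident cells, reached 59.2% and, after thinning, 18.2%. The members held 8.63% of all kept barcodes with an Itga1 UMI.

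Doublets were not removed. Of the members, 34 of 396 (8.59%) were among the 5% of barcodes with the highest Scrublet scores of their library, against 3.56% of Itga1-negative NK cells. Markers of other lineages made up over 1% of the UMIs in 5 members (1.26%), against 2.73% of Itga1-negative NK cells. These were macrophage and monocyte, neutrophil, B cell and dendritic cell markers. T cell and mast cell markers were not counted, so a barcode mixed with such a cell would not show here.

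The comparison of members with Itga1-negative NK cells of the same library asked what the Itga1-positive fraction expressed beyond the gate. UMI counts were summed per population in the 10 libraries with at least 5 cells of each (8 Panc02-SIY and 2 MC38), and the sums were tested with the edgeR quasi-likelihood test with the library as a block. Genes were called with a p-value under 0.1 after Benjamini-Hochberg adjustment and a change of more than 1.3-fold. Of 10560 genes tested, 948 were called (8.98%), 433 higher in members (4.1%) and 515 lower (4.88%). DESeq2 called 708, of which 397 were higher and 311 lower, so the balance of directions depended on the tool. Thinning each cell to at most 2000 UMIs left 486 calls, 185 higher and 301 lower. In 266 genes (2.52%) every library had the same direction. The 8 Panc02-SIY libraries alone gave 945 calls. All adjusted p-values below come from the edgeR test, and expression is the mean CPM ± SD over the 10 libraries unless stated. Log2 fold changes are given with their SE.

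Genes of ILC1 and tissue residency were higher in members and genes of conventional NK cells lower. Of 20 tested genes on the ILC1 and residency list, 12 rose and 1 fell, with a median log2 fold change of 1.52 against -0.02 over all genes tested. Of 21 on the conventional NK list, none rose and 18 fell, with a median of -1.23. The gate gene Itga1 was not counted in either list.

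Tnfsf10 (ENSMUSG00000039304, chr3:27317028-27342427), the gene of the death ligand TRAIL and a marker of liver ILC1, ranged from 42.9 to 144 CPM in members with a median of 91.6. In Itga1-negative NK cells it ranged from 0 to 41.7 CPM with a median of 17.97. The 2 sets did not overlap, and Tnfsf10 was higher in 10 of 10 libraries by a log2 fold change of 2.24 ± 0.20 (adjusted p = 5.64e-17). Inpp4b, a phosphoinositide phosphatase gene, was likewise separate, with 96.4 to 196 CPM in members and 0 to 45.2 CPM in the others (log2 fold change 2.47 ± 0.18, adjusted p = 2.51e-17).

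Further residency genes rose without full separation. Il7r, the interleukin-7 receptor alpha chain, measured 57.6 ± 32.4 against 16.4 ± 10.2 CPM (log2 fold change 1.80 ± 0.21, adjusted p = 1.95e-12), and was at 0 in both populations of the 2 MC38 libraries. Cxcr6, a receptor that retains lymphocytes in tissue, measured 46.4 ± 36.6 against 10.5 ± 8.04 CPM, and Cd200r1, an inhibitory receptor used to gate ILC1, 23.6 ± 16.3 against 5.50 ± 5.51 CPM. Cd160, Gpr183, Ltb, Il21r, Rgs1 and Rgs2 also rose. The exception was Prdm1, the gene of the repressor Blimp-1, which fell by 0.94 on the log2 scale (adjusted p = 5.03e-05). Cd69, the early activation and retention receptor, was at 141 ± 47.1 against 120 ± 33.6 CPM and did not pass the test (adjusted p = 0.377), nor did Itgae (CD103), at 8.001 ± 10.7 against 2.80 ± 3.09 CPM (adjusted p = 0.162). Zfp683 (Hobit) was too low to be tested.

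Eomes (ENSMUSG00000032446, chr9:118478212-118486132), the transcription factor gene that conventional NK cells require, ranged from 134.9 to 225 CPM in members with a median of 150.3. In Itga1-negative NK cells it ranged from 209.9 to 439 CPM with a median of 370.5. Eomes was lower in members of all 10 libraries, by 1.14 ± 0.11 on the log2 scale (adjusted p = 5.58e-17), and the lowest Itga1-negative value lay within the members' range. Eomes transcripts were counted in the members of all 10 libraries.

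Itga2, the CD49b chain, measured 90.2 ± 30.8 against 258 ± 98.1 CPM (log2 fold change -1.59 ± 0.12, adjusted p = 1.21e-23), and Zeb2, a maturation factor, 87.4 ± 33.6 against 268 ± 73.6 CPM, with no overlap between the populations. Itgam (CD11b) and Klrg1, surface markers of mature NK cells, fell by 1.85 ± 0.22 and 2.11 ± 0.27 on the log2 scale. Klf2 and its egress target S1pr1, and also S1pr5, fell, and so did Irf8, Prf1 and Gzma. Ly6c2, Klra7 and Cx3cr1 did not pass the test, with Ly6c2 at 321 ± 209 against 261 ± 128 CPM. The Klra genes are a family of near-identical copies, and their counts are uncertain.

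**Figure D2:**
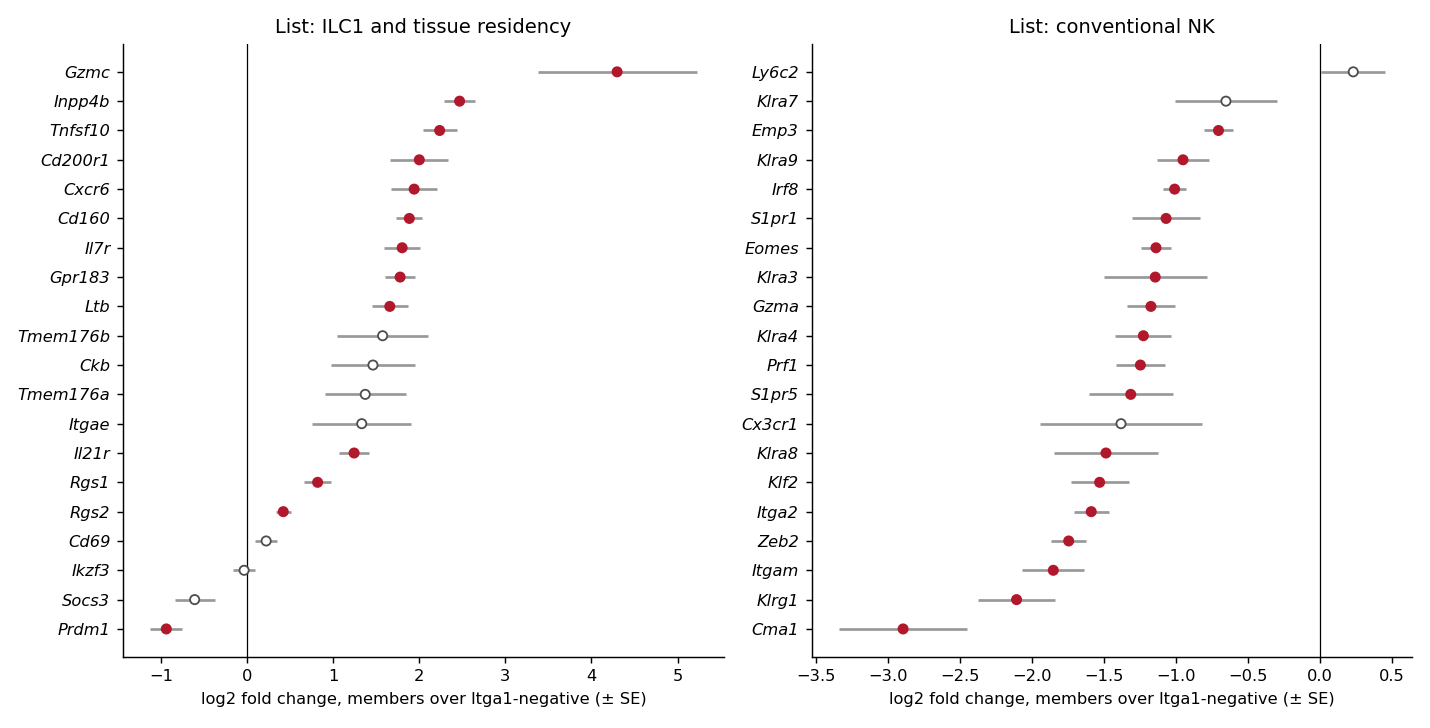
Log2 fold change of members over Itga1-negative NK cells (points, with SE as bars) for genes of the ILC1 and residency list (left) and the conventional NK list (right), from the edgeR fit over 10 libraries. Filled points were called. On the left 12 genes were called higher and Prdm1 lower, and on the right 17 of the genes drawn were called lower.

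Cytotoxic granule genes moved in both directions, 6 of 18 tested up and 5 down. Gzmc (ENSMUSG00000079186), a granzyme of ILC1 and of long-stimulated lymphocytes, ranged from 125 to 24719 CPM in members with a median of 1261. In Itga1-negative NK cells it ranged from 0 to 952 CPM with a median of 55.1. The ranges overlapped, the highest value was that of irradiated MC38 library 4, and Gzmc was higher in 9 of 10 libraries (log2 fold change 4.30 ± 0.92, adjusted p = 0.0175). The neighboring Gzmd reached 524 CPM in members, with a median of 33.4, and never more than 3.01 CPM in the others. Gzme and Gzmf were also called higher, Gzme not by DESeq2, and as sequence relatives of Gzmc and Gzmd they may share reads.

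Perforin and granzyme A transcripts were lower in members. Prf1, the gene of the pore-forming protein, measured 527 ± 163 against 1217 ± 371 CPM, lower in 10 of 10 libraries (log2 fold change -1.25 ± 0.17, adjusted p = 0.000839). Gzma measured 4589 ± 1878 against 9739 ± 1911 CPM, and was likewise lower in 10 of 10 (adjusted p = 0.00133). Gzmb, the granzyme with the widest killing activity, did not pass the test at 1498 ± 1458 against 2109.5 ± 671 CPM (adjusted p = 0.162). The granule genes Ctsw and Cst7 rose, and the granzyme inhibitor genes Serpinb9 and Serpinb6b fell.

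Among 17 tested cytokine and chemokine genes, 3 rose and 5 fell. Xcl1, which attracts cross-presenting dendritic cells, ranged from 875 to 2996 CPM in members with a median of 1669. It ranged from 263 to 955 CPM in Itga1-negative NK cells with a median of 628. Xcl1 was higher in 10 of 10 libraries, by 1.46 ± 0.19 on the log2 scale (adjusted p = 0.000916), and the 2 ranges met only at their edges. Ltb and Csf2 (GM-CSF) rose with it. Ifng measured 195 ± 83.6 against 410 ± 184 CPM (log2 fold change -1.10 ± 0.15, adjusted p = 3.55e-05), and the chemokine gene Ccl5 2715 ± 1625 against 7765 ± 2677 CPM. The chemokine genes Ccl3 and Ccl4 and the cytokine gene Osm also fell.

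Inhibitory receptor genes were mostly higher in members, with 9 of 13 tested genes up and 2 down and a median log2 fold change of 1.02. Lag3 measured 64.6 ± 30.1 against 17.2 ± 11.3 CPM (log2 fold change 1.90 ± 0.21), Ctla4 101 ± 55.8 against 23.2 ± 21.8 CPM (2.13 ± 0.24), and Klrc1 (NKG2A) 472 ± 50.02 against 227 ± 95.4 CPM (1.02 ± 0.11). The first gene stood at 0 in at least 1 library of each population, and the third was higher in 10 of 10 libraries. Pdcd1 (PD-1) was called higher but reached only 7.01 ± 7.51 CPM. Klrg1 and Entpd1 (CD39) fell. Cd7, an early NK and T lineage glycoprotein gene, measured 422 ± 254 against 185 ± 102 CPM (1.32 ± 0.10, adjusted p = 9.78e-20) and Thy1 417 ± 92.3 against 151 ± 65.7 CPM.

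Of 30 tested lineage transcription factors, 5 rose and 7 fell. Ahr, the aryl hydrocarbon receptor gene that keeps ILC1 in liver, measured 156 ± 46.0 against 63.2 ± 25.2 CPM (log2 fold change 1.22 ± 0.13), and Ikzf2 (Helios) 140 ± 47.6 against 55.6 ± 33.7 CPM, both higher in 10 of 10 libraries. Tcf7 (TCF-1), Tox and Rora rose as well. Eomes, Zeb2, Irf8, Runx1, Prdm1, Nr4a1 and Nr4a2 fell. Tbx21, the T-bet gene that both lineages share, did not pass the test at 135 ± 42.6 against 155 ± 52.6 CPM (adjusted p = 0.136).

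Integrin and TGF-beta genes showed no single direction. Of 18 integrin and adhesion genes, Itgax, Itgb3, Itgb7 and Itgav rose and 7 fell, among them Itga2, Itgam, Itgb2 and Itga4. Of 15 genes on the TGF-beta list, Ski, Ldlrad4 and Itgav rose and Smad3 fell. Cish, counted on the same list, also rose but is not specific to TGF-beta signaling. Immediate early and stress genes were lower, with 0 of 21 up and 9 down, Ier2, Nr4a1 and Dusp1 among them, each in 10 of 10 libraries. Interferon-stimulated genes were called in 5 of 51, a share of the list near the 8.98% of all genes.

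The genes with the largest rises among those higher in every library included Tcrg-C4, Cdh1, 2900026A02Rik, Inpp4b, Adam8, AC163354.1, Tnfsf10, Ctla4, Cd160, AA467197 and Ramp1. Cdh1, the gene of E-cadherin, which is the ligand of KLRG1, had a median of 27.6 CPM against 3.27. AC163354.1, a long noncoding RNA gene on another chromosome than Itga1 (chr12:25303940-25471979), reached a median of 421 CPM in members and 84.2 CPM in the others, without overlap. The largest falls among genes lower in every library were those of Cmah, P2rx4, Sgk1, Cmklr1, Plxnc1, Itgam, Gm10522, Ccl3, Zeb2, Ccl5, D1Ertd622e and Itga2. Cmklr1, the chemerin receptor that recruits NK cells, had a median of 4.96 CPM against 37.3.

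**Figure D3:**
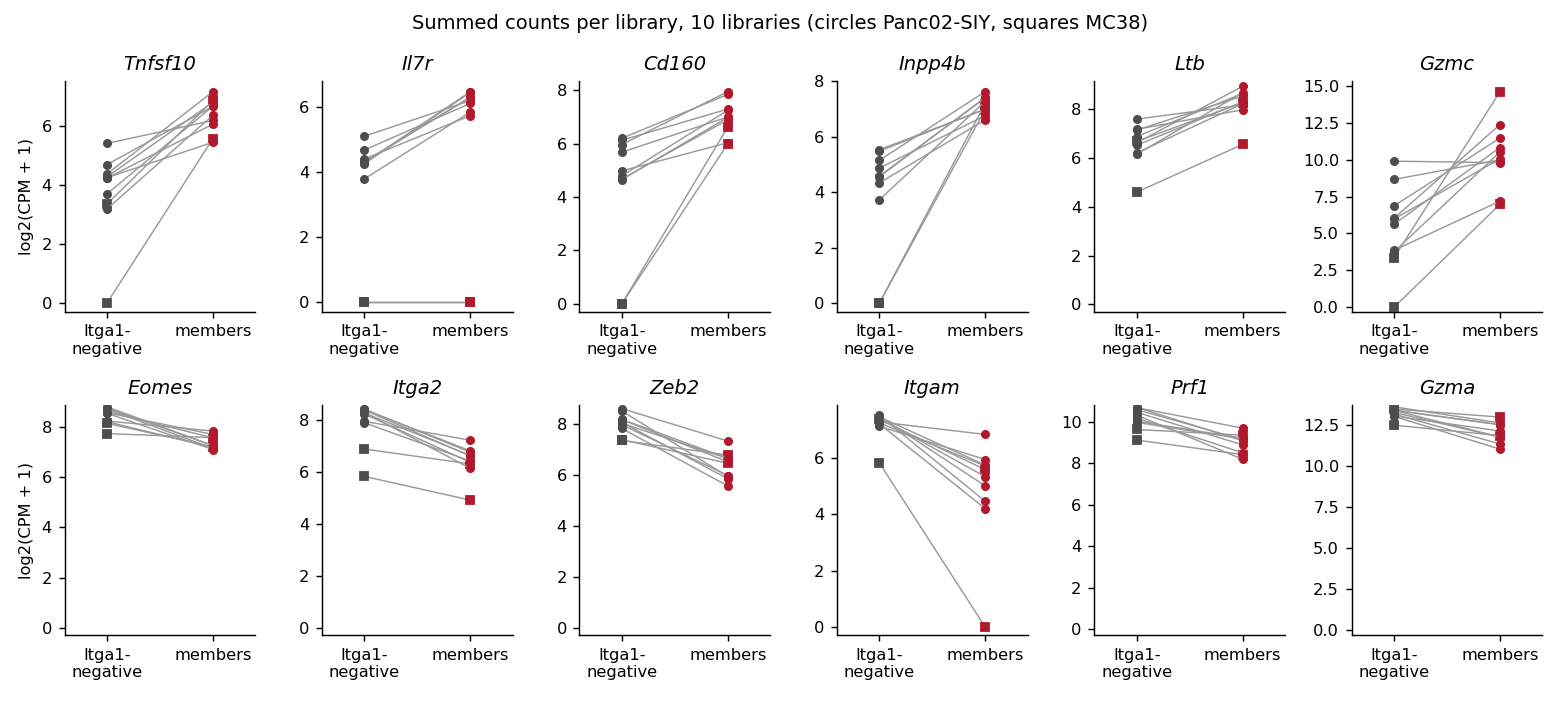
Members and Itga1-negative NK cells of the same library, joined by a line, for 12 genes over 10 libraries. The vertical axis is log2(CPM + 1) of counts summed per population, circles are Panc02-SIY and squares MC38 libraries. Tnfsf10, Cd160, Inpp4b and Ltb are higher and Eomes, Itga2, Zeb2, Itgam, Prf1 and Gzma lower in every library.

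Genes of the T cell receptor needed a separate look, because the gate used only Cd3d and Cd3e. Tcrg-C4, a gamma chain constant gene, ranged from 9.70 to 147 CPM in members with a median of 82.1, against 0 to 35.4 CPM with a median of 9.10 in the others (log2 fold change 3.02 ± 0.22, adjusted p = 3.78e-24). Trdc, the delta chain constant gene, went the other way, with 34.0 ± 16.6 against 70.9 ± 30.4 CPM, lower in 10 of 10 libraries (adjusted p = 0.000485). Trac, the alpha chain constant gene that marks alpha beta T cells, was at 13.8 ± 6.44 against 14.6 ± 10.2 CPM and did not pass the test (adjusted p = 0.555). Of 9 tested T cell markers, Trbc2, Cd28 and Cd3g rose and none fell, and Cd3g stayed at 15.5 ± 7.81 CPM. NK cells and ILC are known to transcribe unrearranged receptor constant genes, and the part of T cells in these values was not tested.

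Markers of other cell types were summed over each list in Panc02-SIY tumors. The 13 T cell markers came to 1261 CPM over the pooled members, 699 of them from Trbc1. By library they ran from 1117.5 to 1505.5 CPM in untreated members against 946 to 1096 CPM in untreated Itga1-negative NK cells, and from 1063.5 to 1277 against 832 to 991 CPM after irradiation, so that every member library lay above the others of its condition. The part of T cells in this difference was not tested. The 15 macrophage and monocyte markers summed to 1424.5 CPM, 631 from Ccr2, which lymphocytes also transcribe, and the 12 dendritic cell markers to 769 CPM, 330 from Cd74. The dendritic cell sum ranged from 82.2 to 2364 CPM between member libraries and from 150.5 to 1905 CPM between those of Itga1-negative NK cells. The 13 ILC2 and ILC3 markers summed to 287 CPM, 151 from Gata3, with Il23r, Il22, Il17a, Il13, Il5 and Ncam1 at 0. Of the 8 B cell, 8 neutrophil and 8 basophil and mast cell markers, the sums were 118, 38.9 and 17.99 CPM. In the test against Itga1-negative NK cells, 8 of 15 macrophage markers fell and none rose, with Lyz2 at 72.5 ± 111 against 471 ± 1078 CPM, and the 3 tested mast cell markers, Cpa3, Mcpt4 and Cma1, fell. Mcpt4 was lower in only 4 of 10 libraries and higher in 2, with a median of 0.911 CPM and a highest value of 919 CPM in Itga1-negative NK cells, and Cma1 also stands on the conventional NK list. Without barcodes that held a UMI of Lyz2, a C1q gene or a mast cell gene, 623 genes were called. Kit, the stem cell factor receptor of ILC and mast cell progenitors, was higher in members at 112 ± 60.3 against 37.4 ± 29.4 CPM.

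Shares of cells with a UMI were compared after thinning each cell to 1000 UMIs, which left out no cell. A Tnfsf10 UMI was found in 11.2% ± 5.17 of members and 1.13% ± 1.24 of Itga1-negative NK cells (mean ± SD over 10 libraries), higher in 10 of 10 (exact two-sided paired permutation p = 0.00195, adjusted p = 0.0117 over 12 genes). For Gzmc the shares were 18.4% ± 11.05 and 1.19% ± 1.12 (exact permutation, adjusted p = 0.0117). For Il7r they were 7.49% ± 5.09 and 0.899% ± 0.608 (exact permutation, adjusted p = 0.0156). In B cells of Panc02-SIY tumors, at the same depth, 1.299% had a Tnfsf10 UMI (2 of 154 cells), 0% a Gzmc and 0.649% an Il7r UMI. In neutrophils 0.843% had a Tnfsf10 UMI (17 of 2017 cells), so the share of Itga1-negative NK cells lay between those of the 2 cell types. Without thinning the members' shares were 41.2%, 34.3% and 19.7%.

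Eomes UMIs were found in fewer members, 18.9% ± 7.62 against 28.1% ± 4.31 (exact permutation, adjusted p = 0.0443), and Itga2 UMIs in 9.80% ± 7.08 against 24.4% ± 9.53 (adjusted p = 0.0117, exact permutation). B cells stood at 0% and 0.649%. Without thinning, 52.8% of members and 69.9% of Itga1-negative NK cells had an Eomes UMI, and 41.6% and 62.7% an Itga2 UMI. Klrg1 and Trdc were also less frequent and Cxcr6 more frequent in members. Cd200r1 was found in 2.35% of members and 0.318% of Itga1-negative NK cells, but 2.38% of neutrophils had it too, so no expression is read from it at this depth. Tcf7, Ly6c2 and Cd3g did not pass at 1000 UMIs (adjusted p = 0.476, 0.573 and 0.75, exact permutation).

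Levels also differed with the number of Itga1 UMIs, pooled over Panc02-SIY cells and given with no test because Itga1 chose the cells. Eomes stood at 382 CPM in the 1274 cells with 0 Itga1 UMIs, 220 in the 138 with 1, 145 in the 77 with 2 and 118 in the 165 with 3 or more. Itga2 took the values 303, 115, 105 and 71.4 CPM in the same order. Tnfsf10 took 19.3, 77.6, 80.4 and 100.0 CPM, Cd160 38.2, 119, 136 and 189 CPM, and Gzmc 156, 964, 1264 and 2708 CPM. The largest step of Tnfsf10 and Cd160 lay between 0 and 1 UMI. Median depths of the 4 classes were 4440.5, 5942, 7039 and 6971 UMIs, so the classes also differed in depth. The 60 Panc02-SIY barcodes just outside the gate for a single Cd3 UMI had 116 CPM of Tnfsf10 and 83.0 CPM of Eomes.

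Both tumors were also fitted apart, with 1 untreated and 1 irradiated MC38 library against 8 Panc02-SIY libraries. In Panc02-SIY 928 genes were called (8.79%) and in MC38 219 (2.07%), of which 65 were called in both, or 29.7% of the MC38 and 7.004% of the Panc02-SIY calls, and 61 of these went in the same direction. Without irradiated MC38 library 4, which held 5 members, the MC38 count fell to 33. The MC38 value then rested on 1 library with 6 members, whose spread was assumed to be that of the Panc02-SIY libraries. The 9 Itga1-negative cells of irradiated MC38 library 4 stood apart in markers of other cell types. Their macrophage and monocyte markers summed to 17377 CPM, 4540 from Apoe, and their dendritic cell markers to 25349 CPM, 11458 from Cd74, against 1672 and 704 CPM in the members of that library. In untreated MC38 library 4 the sums were 1402 and 1037 CPM in Itga1-negative cells and 1625 and 861 CPM in members. Without barcodes with over 1% of UMIs from markers of other lineages, an alternative chosen after seeing the data, 138 genes were called in MC38 and 31 for the difference between the tumors. The difference between the tumors was called for 59 genes (0.559%), for 3 without irradiated MC38 library 4, for 129 without untreated MC38 library 4 and for 89 without untreated Panc02-SIY library 2. Tnfsf10 was higher in both tumors, by 3.82 ± 1.13 on the log2 scale in MC38 (adjusted p = 0.0623) and 2.19 ± 0.20 in Panc02-SIY (adjusted p = 1.66e-15), and the difference did not pass the test (adjusted p = 0.835). The MC38 value is a fitted one, from 3 and 12 Tnfsf10 UMIs in members and 0 and 1 in Itga1-negative NK cells of the 2 libraries. Eomes was not called in MC38 alone, at -0.65 ± 0.37.

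Irradiation was compared within the members of Panc02-SIY tumors, 181 untreated cells in 4 libraries against 199 irradiated cells in 4. Of 7782 genes tested, 62 were called (0.797%), 44 higher after irradiation (0.565%) and 18 lower (0.231%), and 728 (9.35%) had an unadjusted p under 0.05. Among the other settings that, like this one, did not pair libraries by number, calls ran from 23, 19 higher and 4 lower, with at least 2 Itga1 UMIs required of a member, to 108, 75 higher and 33 lower, with no filter on low counts. The 4 untreated and 4 irradiated values did not overlap for 431 genes (5.54%). Among them were transcriptional targets of p53, the factor that DNA damage activates to halt the cell cycle or start apoptosis. Of the 28 p53 targets tested, 11 rose and none fell, with a median log2 fold change of 0.89 against 0.01 over all genes tested. These were Cdkn1a, Ccng1, Bax, Phlda3, Trp53inp1, Mdm2, Aen, Rps27l, Mgmt, Dcxr and Ei24.

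Cdkn1a (ENSMUSG00000023067, chr17:29090976-29100727), the gene of the cell cycle inhibitor p21, was at 23.6, 21.0, 8.92 and 21.7 CPM in the untreated libraries. It was at 306, 313, 289 and 402 CPM in the irradiated ones. The groups did not overlap, with a log2 fold change of 4.11 ± 0.25 (adjusted p = 5.42e-16). Ccng1, the cyclin G1 gene, measured 55.0, 65.9, 59.4 and 49.3 CPM untreated and 377, 342, 374 and 244 CPM irradiated (log2 fold change 2.53 ± 0.20, adjusted p = 5.56e-12). Bax, which permeabilizes mitochondria in apoptosis, measured 82.5, 129, 95.1 and 100.5 CPM untreated and 339, 360, 274 and 351 CPM irradiated (1.69 ± 0.18, adjusted p = 2.9e-08). In each of these genes the lowest irradiated library stood above the highest untreated one.

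Phlda3, a repressor of AKT, had no UMI in any untreated library and 87.4, 21.6, 49.9 and 37.8 CPM in the irradiated ones. Pooled, this was 0 against 56 UMIs, at least 21.9-fold higher when the untreated group is set to a floor of 3 counts over the group. Mdm2 and Mdm4, which restrain p53, rose by 1.14 ± 0.26 and 1.02 ± 0.21 on the log2 scale, and Apaf1, the apoptosome scaffold, and Aen, a nuclease of apoptosis, by 1.27 ± 0.32 and 1.28 ± 0.32.

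Short stretches of promoters are shown for the p53 list genes that rose and held a p53 half-site, to let the sites be compared. They are 30 bases on the strand of the gene, from RefSeq promoters (GRCm38.p6, 250 bases before to 50 after the start), and capitals mark the 10 bases that matched the p53 half-site consensus, a pattern that is its own reverse complement. Of the 11 genes, 10 had a promoter in the table and 6 of them (60.0%) held a match, as did 8.36% of all 32851 promoters and 6.58% of those of the genes tested. Among all genes called higher in irradiated members, on the p53 list or not, 33 had a promoter and 7 of them (21.2%) held a match. These were the same 6 list genes and Exoc4, the only match off the list. The list was made of known p53 targets, so its share of matches is no independent support. Cdkn1a held 2 overlapping windows, 73 and 51 bases upstream of the start (chr17:29090896-29090925 and chr17:29090918-29090947). The sites of Ccng1 (chr11:40755452-40755481), Bax (chr7:45467080-45467109) and Mdm2 (chr10:117710925-117710954) lay 185, 201 and 186 bases upstream, that of Ei24 (chr9:36797325-36797354) 10 bases upstream and that of Aen (chr7:78895927-78895956) 10 bases downstream. A match is a description of letters and does not show binding.
Cdkn1a, first: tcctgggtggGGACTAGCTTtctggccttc
Cdkn1a, second: tggccttcagGAACATGTCTtgacatgttc
Ccng1: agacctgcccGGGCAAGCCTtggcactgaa
Bax: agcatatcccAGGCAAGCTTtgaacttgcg
Mdm2: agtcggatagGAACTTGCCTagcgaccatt
Aen: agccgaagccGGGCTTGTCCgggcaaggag
Ei24: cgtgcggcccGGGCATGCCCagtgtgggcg

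Outside the p53 list, the largest rises included Serpine2, a secreted protease inhibitor gene, at 0, 14.97, 23.8 and 9.85 CPM untreated and 579, 392, 395 and 385 CPM irradiated (log2 fold change 5.07 ± 0.30, adjusted p = 4.06e-13). The 4 irradiated libraries lay together far above the untreated ones, with library 1 highest. Exoc4, a subunit of the exocyst that docks secretory vesicles, rose by 2.04 ± 0.24 on the log2 scale (adjusted p = 3.23e-07). The costimulatory ligand genes Tnfsf4 (OX40 ligand) and Tnfsf8 (CD30 ligand) rose by 2.12 ± 0.49 and 1.76 ± 0.33, and Gm42047, Map3k20, Brf1 and Elp2 were the others. Serpinb9, which protects a killer cell from its own granzyme B, rose from between 461 and 740 CPM to between 855 and 1525 CPM, and Bcl2, a survival factor gene, from between 644 and 755 CPM to between 852 and 1139 CPM.

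The largest falls with separate groups were those of Timm8a1, Gar1, C1qbp, Impdh2, Sdf2l1, Snx5, Trbc2, Nhp2, Cd7, Ranbp1, Nop58 and Rps2, and Dut also fell. Gar1, Nhp2 and Nop58 are proteins of small nucleolar ribonucleoproteins, C1qbp and Timm8a1 are mitochondrial, Impdh2 makes guanine nucleotides and Dut removes dUTP in S phase. C1qbp was at 70.7, 83.8, 74.3 and 114 CPM untreated and 16.4, 53.9, 32.1 and 34.0 CPM irradiated (log2 fold change -1.31 ± 0.29, adjusted p = 0.019). Its groups did not overlap, whereas those of Dut met at the edge. Cd7 measured 747, 599, 532 and 824 CPM untreated and 273, 414, 331 and 291 CPM irradiated (-1.04 ± 0.17, adjusted p = 0.000132), and Trbc2 fell by 1.11 ± 0.20, both without overlap. The sum of all 13 T cell markers overlapped between the groups, from 1118 to 1506 CPM untreated and from 1064 to 1277 CPM irradiated. Dut was the only S phase gene of 15 tested to pass, and the median log2 fold change of that list was -0.55.

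Identity genes of the members did not pass the test after irradiation. On the ILC1 and residency list 0 of 19 tested genes and on the conventional NK list 0 of 19 were called, against 0.797% of all genes. Tnfsf10 measured 102, 102, 71.3 and 65.0 CPM untreated and 43.7, 82.7, 146 and 110 CPM irradiated, and Eomes 189, 135, 202 and 139.9 CPM untreated and 229, 140.2, 153 and 147 CPM irradiated. Both genes overlapped between the groups. Of 47 interferon-stimulated genes tested, none were called, with a median log2 fold change of 0.42.

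The number of calls depended on single libraries. Leaving out 1 library gave between 31 calls, without untreated library 4 or without irradiated library 3, and 102, without irradiated library 2. Cdkn1a, Ccng1, Serpine2, Exoc4, Bax, Trbc2 and Cd7 were called in the same direction under every alternative fitted and without each library. On simulated counts of the same depth, the test recovered 46.9% of genes changed by a factor of 2 and 88.4% of those changed by a factor of 4. Of its 145 calls there, 16 were false.

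Itga1-negative NK cells were set beside the members in a fit of another form. It held the 8 Panc02-SIY libraries and also 5 MC38 libraries of 5 to 10 cells each, whereas the members' fit held the Panc02-SIY libraries alone, so the numbers of calls are not comparable. After irradiation in Panc02-SIY tumors 7 of 9921 genes were called (0.0706%), with 571 (5.76%) at an unadjusted p under 0.05 and 39 calls by DESeq2. Phlda3 and Gzmb rose, and Cd7, Cd160, Ltb, Ubb and Pglyrp1 fell. Cdkn1a moved by 1.75 ± 0.34 on the log2 scale, Ccng1 by 0.78 ± 0.20 and Bax by 0.64 ± 0.17, and none of these was called (adjusted p = 0.201, 0.181 and 0.246). With the 8 Panc02-SIY libraries alone, an alternative of the same form as the members' fit that was chosen after seeing the data, 49 of 9504 genes were called (0.516%), 23 higher and 26 lower. Ccng1, Bax, Phlda3 and Psrc1 were then called higher among 34 tested p53 targets, Cdkn1a was not (adjusted p = 0.122) and Ubb was no longer called. Over all its alternatives the adjusted p of Cdkn1a ran from 1.16e-13 to 0.478. Cdkn1a was called, in the same direction, under 7 of 15 other settings and without 4 of 13 single libraries, and Ccng1 under 4 and without 3. In MC38 tumors the comparison was very small, 2 untreated libraries of 6 and 5 Itga1-negative NK cells against 3 irradiated ones of 8, 10 and 9. There 0 genes were called by edgeR, with 724 (7.30%) at an unadjusted p under 0.05, 17 calls by DESeq2 and 40 with no filter on low counts.

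The difference between the 2 radiation responses was tested directly, as the interaction of population and irradiation within library. Of 9606 genes, 20 were called (0.208%), 12 with a more positive response in members (0.125%) and 8 with a more negative one (0.0833%). DESeq2 called 4 genes, none with a more negative response, and thinning to 2000 UMIs left 8, of which 1 was more negative. On simulated counts this test recovered 27.1% of genes changed by a factor of 2 and 67.7% of those changed by a factor of 4. Of its 109 calls there, 18 were false. Of the 36 p53 targets tested, Cdkn1a, Ccng1, Bax and Trp53inp1 had a more positive response in members and none a more negative one, with a median difference of 0.89 against 0.00 over all genes.

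Cdkn1a in Itga1-negative NK cells was at 54.1, 77.7, 26.5 and 58.8 CPM untreated and 169, 141, 136 and 266 CPM irradiated. Members of the same fit were at 23.7, 20.8, 8.90 and 21.9 CPM untreated and 303, 312, 292 and 406 CPM irradiated. Members lay below the Itga1-negative NK cells in every untreated library and above them in every irradiated one, and the response was larger by 2.41 ± 0.30 on the log2 scale (adjusted p = 5.39e-07). For Ccng1 the difference was 1.73 ± 0.26 (adjusted p = 5.4e-05). Itga1-negative NK cells went from between 59.8 and 82.8 CPM to between 101 and 146 CPM, while members went from between 49.7 and 65.3 CPM to between 246 and 378 CPM. Exoc4, Trp53inp1 and Bax differed by 1.53 ± 0.27, 1.41 ± 0.28 and 1.06 ± 0.21. Cdkn1a and Ccng1 kept the call under every alternative fitted and without each library. Exoc4 lost it under DESeq2, Bax and Trp53inp1 under DESeq2 and when cells were thinned to 2000 UMIs, and Trp53inp1 also without untreated library 3 or 4. The number of genes called was 34 without untreated library 1 and 52 without irradiated library 2.

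Ltb, the gene of lymphotoxin beta, differed by 1.14 ± 0.21 (adjusted p = 0.00326). In Itga1-negative NK cells it went from 142, 117, 192 and 141 CPM to 91.0, 71.8, 96.6 and 70.5 CPM, and in members from 380, 398, 285 and 251 CPM to 319, 301, 508 and 408 CPM. The Itga1-negative groups were separate and the members' groups overlapped. S100a10, Ctla2a and Rps19 also had a more positive response in members. Under DESeq2, Ltb and Ctla2a were not called, and Ctla2a was not called after thinning either. Trbc2 differed by -0.91 ± 0.20, with members falling as above and Itga1-negative NK cells between 147 and 238 CPM untreated and between 149 and 180 CPM irradiated. Timm8a1, Nop58 and Fubp1 were also called with a more negative response in members. DESeq2 called none of these 4, and neither did the edgeR test after thinning to 2000 UMIs or without untreated library 4. Trbc2 and Fubp1 also lost the call without untreated library 2, Nop58 without untreated library 3, and Nop58 and Fubp1 without irradiated library 1 or 4.

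Transcripts of myeloid and mast cells were also among the calls. Cxcl9 and Mpeg1, genes of macrophages, and Hdc, Mcpt4 and Cxcl2 were called in this test. Mcpt4 rested on 1 value, 911 CPM in Itga1-negative NK cells of untreated library 2, against at most 8.99 CPM elsewhere in them. Leaving out barcodes with a UMI of Lyz2, a C1q gene or a mast cell gene, an alternative chosen after seeing the data, gave 34 calls, with Cdkn1a, Ccng1, Exoc4, Ltb, Bax and Trp53inp1 still called. Serpine2 and Phlda3 reached higher levels in irradiated members (390 to 573 CPM against 44.9 to 160 CPM, and 21.5 to 86.6 against 10.97 to 18.4 CPM), yet the difference in response was not called (adjusted p = 0.796 and 0.885). Phlda3 had 0 UMIs in untreated members and 2 in untreated Itga1-negative NK cells, and Serpine2 stood at 12.01 and 8.92 CPM over the pooled untreated cells.

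**Figure D4:**
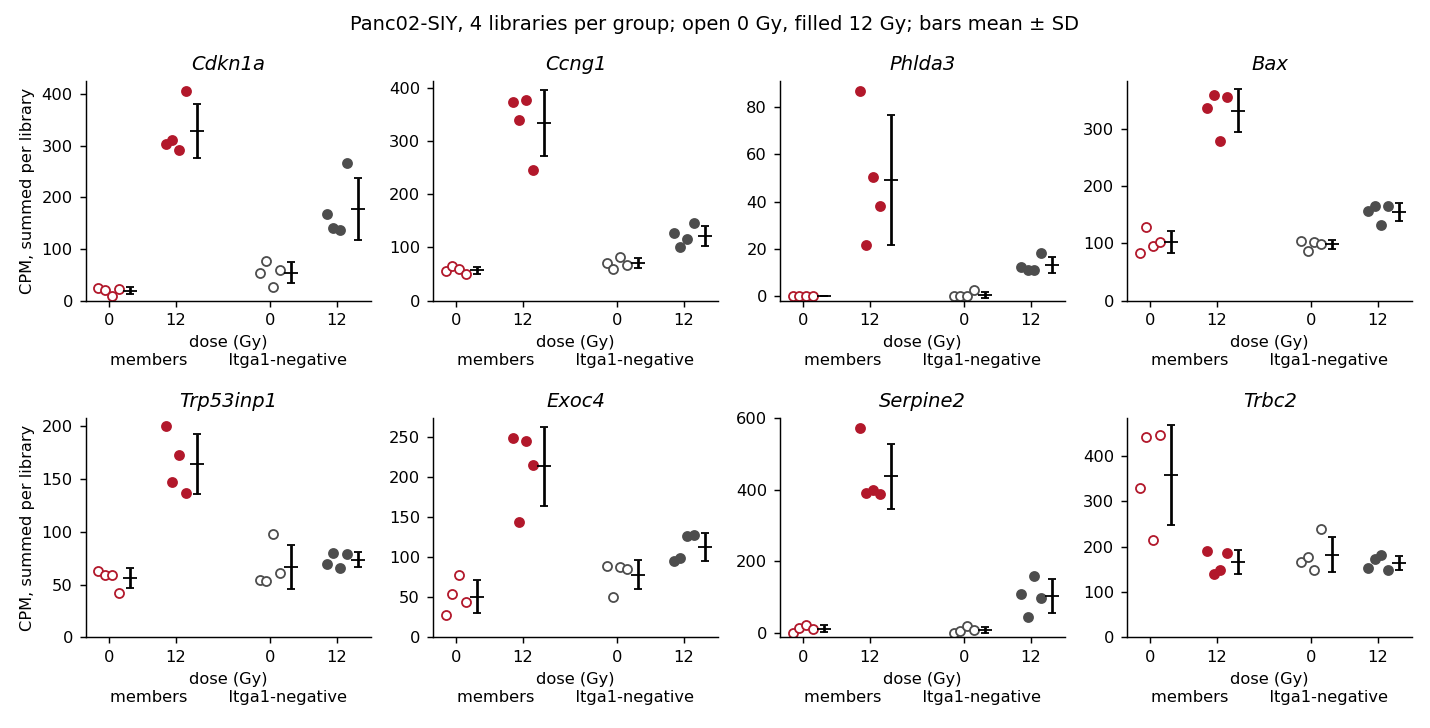
CPM per library of 8 genes in Panc02-SIY tumors at 0 Gy (open) and 12 Gy (filled), members in red and Itga1-negative NK cells in gray, with mean ± SD as bars. Cdkn1a of members goes from between 8.90 and 23.7 to between 292 and 406 CPM, and that of Itga1-negative NK cells from between 26.5 and 77.7 to between 136 and 266 CPM. Trbc2 is called lower after irradiation in members and not in Itga1-negative NK cells.

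**Figure D5:**
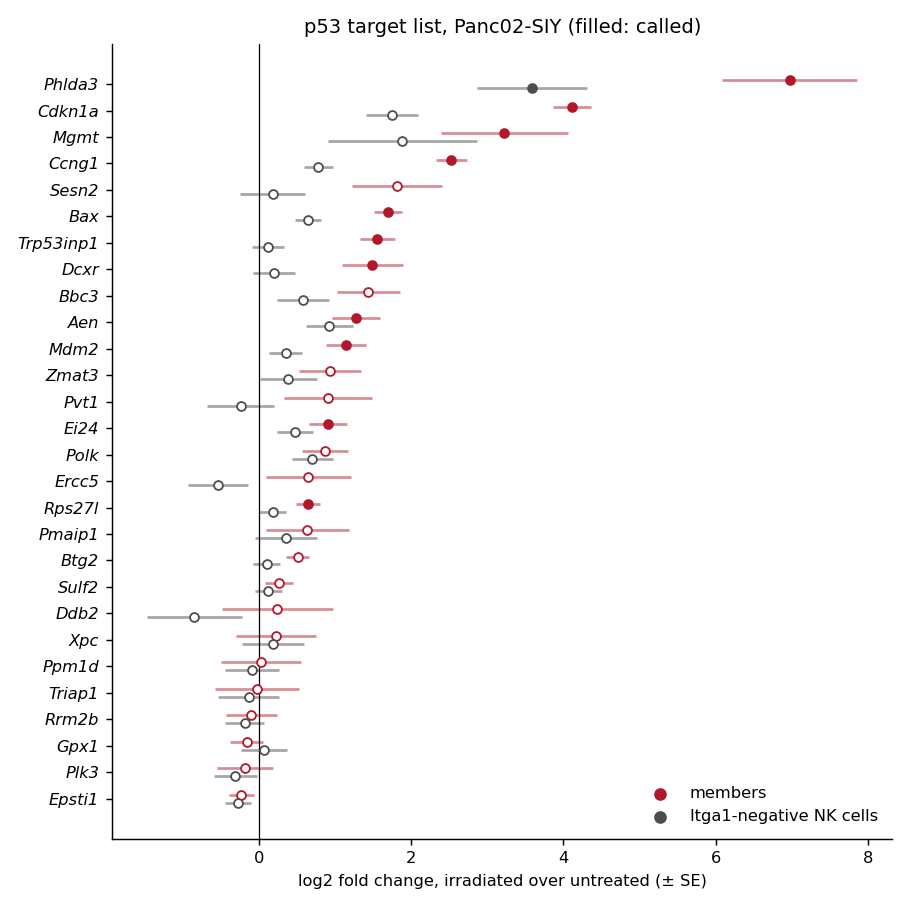
Log2 fold change after irradiation (points, with SE as bars) for the 28 tested p53 targets, members in red and Itga1-negative NK cells in gray, filled where called. Members have 11 filled points and Itga1-negative NK cells 1, Phlda3, but the latter fit also held 5 small MC38 libraries, and Ccng1 and Bax were called in these cells with the Panc02-SIY libraries alone. For Phlda3 the fitted value in members is no bound because untreated members had no UMI.

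The shares of cells with a UMI of these genes were counted as well. After thinning to 2000 UMIs, which left out 1 member, Cdkn1a UMIs were found in 75 of 198 irradiated members, between 30.6% and 43.3% per library, against 8 of 181 untreated ones. In irradiated Itga1-negative NK cells the shares ran from 14.2% to 26.5%, below every member library. Untreated Itga1-negative NK cells ran from 0.885% to 8.96%, without overlap with the irradiated ones. At the same depth 5 of 104 irradiated B cells (4.81%) and 482 of 981 irradiated neutrophils (49.1%) had a Cdkn1a UMI, against 2 of 46 and 112 of 656 untreated ones. The thinning left out 291 irradiated and 96 untreated neutrophils with too few UMIs, so the neutrophil shares cover only the deeper cells. Many cell types transcribe Cdkn1a, so these are no measure of free RNA alone. Serpine2 was found in 35.0% to 46.7% of irradiated members and 4.25% to 10.4% of irradiated Itga1-negative NK cells, against 0 of 104 irradiated B cells, which allows up to 2.88%, and 7 of 981 irradiated neutrophils (0.714%). Untreated libraries had it in 0% to 2.56% of members and 0% to 2.65% of Itga1-negative NK cells. A UMI of Cdkn1a, Ccng1 or Phlda3 was held by 116 of 198 irradiated members, between 47.5% and 66.7% per library, against 11.8% to 15.9% in untreated libraries. In Itga1-negative NK cells the same shares ran from 24.1% to 42.0% irradiated and from 17.7% to 22.2% untreated. They were 11.5% and 10.9% in B cells and 56.2% and 24.7% in neutrophils. These shares are a description, since the same counts entered the gene test.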

How the data were processed

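Single-cell RNA of sorted CD45+ tumor cells was counted by the authors with Cell Ranger 3.1.0 on mm10 (bcl2fastq 2.20.0 for read conversion, per the submitters' processing notes), and the deposited matrices hold raw UMI counts per gene and cell barcode, over 31053 features. An aggregated copy of all libraries was not used. Barcodes were filtered and gated as described. Counts were summed per library and population and tested with edgeR 4.0.16 in R 4.3.3, with DESeq2 1.42.0 as an alternative. Low counts were removed by filterByExpr at 3 per library and 15 in total. TMM scaling was done within each comparison, so that a library's CPM can differ slightly between comparisons. The quasi-likelihood fit was robust, and its fold changes used edgeR's default prior count. A prior count of 2 entered only the log CPM that judged whether libraries separated in the difference of responses. The tests were checked on simulated counts, where part of the calls were false. For members against Itga1-negative NK cells, 55.7% of genes changed by a factor of 2 were recovered, and 24 of 161 calls were false. Shares used exact two-sided permutation tests (scipy 1.17.1), and intervals and floors cover counting error only. Scrublet scores came from scanpy 1.11.5. Coordinates are those of GENCODE on GRCm38. Named genes are the gate genes, up to 4 examples per list, and per comparison the 12 largest rises and falls among called genes with every library or pair on the same side; others named beside them were chosen after their values were seen. A few genes that met these rules are not reported here. The members and the gene lists were chosen with earlier results of these data known. Other gates, filters, depths, tools and leave-one-out fits were tried as alternatives.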

Additional observations from a re-analysis of the deposited data

Results flagged for a closer look

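Single libraries stood apart from the other 3 of their group in 11 of 72 groups of 4 examined. For normally spread values the rule flags about 1 in 20 by chance. It always flags a group with 3 libraries at 0 and 1 above 0, so that rate does not hold for such groups. Irradiated MC38 library 4 held members at 1.37% of kept barcodes and 35.7% of the NK gate, against 0 in the other 3 libraries, and irradiated Panc02-SIY library 4 held members at 25.9% of the NK gate. In untreated Panc02-SIY members, Gm42047 stood at 1.97 CPM and Mgmt at 3.94 CPM in library 4, and Map3k20 at 2.99 CPM in library 2, each with the other libraries at 0. These values rested on 1, 2 and 1 UMIs. Cish stood at 237 CPM in untreated library 2. In irradiated members, Serpine2 was high in library 1 at 579 CPM, Timm8a1 was at 0 in the same library, Dut was high in library 2 at 71.9 CPM and Sdf2l1 low in library 3 at 21.4 CPM.

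The radiation response differed between members and Itga1-negative NK cells by the edgeR interaction test for genes whose libraries separated, 14 of which are given here. As log2 differences with adjusted p-values, these were Cdkn1a at 2.41 (5.39e-07), Ccng1 at 1.73 (5.4e-05), Exoc4 at 1.53 (0.00106), Trp53inp1 at 1.41 (0.00534), Ltb at 1.14 (0.00326), Bax at 1.06 (0.00508), S100a10 at 0.78 (0.000152), Ctla2a at 0.70 (0.00831) and Rps19 at 0.63 (0.000283). The more negative ones were Olfr1369-ps1 at -7.79 (0.0006), a fitted value from 27 UMIs in untreated and 1 in irradiated members against 2 and 75 in Itga1-negative NK cells, Timm8a1 at -2.75 (0.0283), Nop58 at -1.13 (0.0898), Trbc2 at -0.91 (0.014) and Fubp1 at -0.77 (0.0697).

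The difference of members from Itga1-negative NK cells was unlike in the tumors for Tubb4b, by 2.36 on the log2 scale (MC38 minus Panc02-SIY, adjusted p = 0.00216 by edgeR), for Sulf2, by -2.40 (adjusted p = 0.0958), and for Il12rb2, by -7.54 (adjusted p = 0.0921), a fitted value with the MC38 members at 0 in both libraries. MC38 entered with 11 members in 2 libraries.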

How the results depend on the processing

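Directions of named genes held under nearly all alternatives. For members against Itga1-negative NK cells, 1234 values over 91 genes kept direction and call, 95 lost the call, and Mcpt4 reversed to 0.184 with Ncr1 and Klrb1c each required. For radiation in members, 349 kept the call and 78 lost it over 30 genes. For the difference of responses, 164 stayed the same and 39 lost the call over 16 genes. Phlda3, which was not called to begin with, is among these genes. For radiation in Itga1-negative NK cells of Panc02-SIY, 17 values lost and 11 gained the call over 9 genes, and none reversed. These counts do not include the fits without 1 library. In those, 863 values kept and 38 lost the call for members against Itga1-negative NK cells, and 177 and 62 for radiation in members. For the difference of responses 112 stayed the same and 16 lost the call. For radiation in Itga1-negative NK cells 29 lost and 7 gained it. The cause of each change was not tested. Against Itga1-negative NK cells, thinning to 2000 UMIs gave 486 calls, 185 higher and 301 lower, DESeq2 gave 311 lower, leaving out barcodes with myeloid or mast cell UMIs gave 623, of which 307 lower, and no replicate block (library) gave 320 lower. For MC38 alone, 34 genes were called with both NK genes required, 138 without cells of over 1% other-lineage UMIs, 43 without the highest Scrublet scores, 6 thinned, and 33 to 268 without 1 library; Panc02-SIY alone gave 495 thinned. The tumor difference gave 33 at an adjusted p below 0.05, 101 with no filter, 5 with both NK genes, 31 without other-lineage cells, 6 without the highest Scrublet scores, 6 thinned, and 3 to 129 without 1 library.

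Radiation in members gave 40 calls at an adjusted p below 0.05 (29 higher, 11 lower), 108 with no filter (75 and 33), 40 with both NK genes (10 lower), 23 with at least 2 Itga1 UMIs (19 and 4), 25 higher thinned, 48 lower without myeloid or mast cell barcodes, and 31 to 102 without 1 library (24 to 54 higher, 6 to 48 lower). A replicate block gave 282 calls, 155 higher and 127 lower. Same-numbered libraries correlated at 0.0488 to 0.154 in members and 0.00474 to 0.306 in Itga1-negative NK cells, so the numbers were not taken as pairs, although each member library correlated best with its own number. In Itga1-negative NK cells of Panc02-SIY, calls numbered 4 at an adjusted p below 0.05, 34 with no filter, 39 by DESeq2, 49 in the Panc02-SIY libraries only, 46 with both NK genes, 3 with other T cell genes at 0, 36 without other-lineage cells, 39 thinned, and 1 to 12 without 1 library. In those of MC38 they numbered 40 with no filter, 17 by DESeq2, 40 with both NK genes, 14 without other-lineage cells, 3 with all barcodes kept, 4 thinned, and 0 to 19 without 1 library. The difference of responses gave 34 with no filter (18 lower), 13 at a minimum count of 10 (3 lower), 4 by DESeq2 (4 higher, 0 lower), 8 thinned (7 and 1), 34 without myeloid or mast cell barcodes (19 lower), 5 lower at an adjusted p below 0.05, 3 lower with 2 Itga1 UMIs, 5 lower without the highest Scrublet scores, and 15 to 52 without 1 library (11 to 21 and 3 to 31).

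Shares, in percentage points, depended on depth and gate. The settings were thinning before the gate, Itga1 counted after thinning, 1000 genes, both NK genes, 2 Itga1 UMIs, other T cell genes at 0, no highest Scrublet scores and a replicate block. Members of the NK gate in Panc02-SIY took -5.42, -4.39, -13.6, -15.4, -8.72, 5.54, -12.7 and, with the replicate block, -13.4 in that order, and -15.9 to -11.3 without 1 library. The NK gate in untreated MC38 minus Panc02-SIY took -3.21, -5.97, -6.80, -5.02, -6.00, -0.393, -5.64 and -6.00 (-7.18 to -4.54 without 1 library). In irradiated tumors it lost the call at -6.38, -13.8, -8.56, -11.3, -1.47, -11.3 and -11.3, all but the second setting (-12.9 to -9.16), and members of kept barcodes at -0.308, -2.93, -1.91, -1.53, -0.152, -2.40 and -2.48 (-2.82 to -2.18). The NK gate does not use Itga1, so requiring 2 Itga1 UMIs left its shares unchanged. At 1000 genes its irradiated groups stayed separate, with 4.24% to 6.42% in MC38 and 12.6% to 27.1% in Panc02-SIY. Both of these calls were lost only through the adjustment over the 12 share comparisons. Apart from members of the NK gate in Panc02-SIY with other T cell genes at 0 (5.54), reversals came in differences that were not called. The NK gate after radiation in MC38 became -0.109 thinned, -0.0641 with all barcodes kept and -0.0889 with other T cell genes at 0. Members of kept barcodes after radiation in MC38 became 0.0710, 0.142 and, with other T cell genes at 0, 0 (-1.26 to -0.685 without 1 library), and members of its NK gate 12.5 and 3.57 under the first 2 settings (-40.7 to -27.2). Members of the NK gate, MC38 minus Panc02-SIY, became -11.0, -11.4 and, with all barcodes, -6.86 untreated, and 6.91 thinned when irradiated (-18.3 to -6.38). Members of kept barcodes after radiation in Panc02-SIY became 0.108, 0.0255, 0.116 and 0.0643 (-0.381 to 0.342), and untreated MC38 minus Panc02-SIY was called at -1.02 and -2.46. The shares with a Tcf7 UMI differed by 8.61 at 2000 UMIs and 25.8 unthinned, both called, as did Cd3g by 1.55 and 6.86, and Cd200r1 lost its call at 2.26. Fits with other T cell genes at 0 were not run for members, nor the tumor fit with 2 Itga1 UMIs or without myeloid or mast cell barcodes, for want of members. MC38 is limited by its 16 members, whose library median depths of 7242 to 40120 UMIs compare with 5124.5 to 7785 in Panc02-SIY.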
